A study of Mus musculus with 2 samples.

Results

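The axon guidance ligands and receptors are the semaphorins with their neuropilin and plexin receptors, the netrins with theirs, the Slit and Robo proteins, and the ephrins with the Eph receptors. They were taken from the deposited gene table by symbol alone, which gave 70 of 23176 genes, 35 ligands and 35 receptors. Gene expression was measured by sequencing of polyadenylated RNA in a pair of mouse lines, STHdhQ7 and STHdhQ111, of which the table holds 1 combined value each. Both are embryonic day 14 striatal derived lines of 129SvEv/CD1 strain background with under 15 passages. STHdhQ7 is HdhQ7/Q7 and STHdhQ111 is HdhQ111/Q111, the form of huntingtin with the expanded polyglutamine tract. Both lines grew at 33 °C and were moved to 39 °C for 2 days so that they would stop dividing. Each genotype is 1 cell line, so genotype and the history of a line cannot be told apart.

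Guidance cues steer growing axons and migrating cells by attraction or repulsion. Semaphorins act through plexins, and most secreted class 3 semaphorins also need a neuropilin. Netrins attract through Dcc and neogenin (Neo1) and repel through Unc5 receptors, Slits repel through Robo1 and Robo2, and ephrins and Eph receptors signal at cell contacts, in both cells. The same families pattern the developing striatum and its axons, and also guide vessels and neural crest cells.

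Levels are given in FPKM, fragments divided by transcript length and by the mapped fragments of a library, a scale per length on which genes can be compared. Depth is unknown, and each value combines the 3 replicates named in the sample titles, so no replicate spread can be shown. Differences are therefore read from the Cuffdiff test in the authors' deposited table, whose log2 fold change divided by its statistic gives an implied standard error (SE). A gene is called when its deposited q is 0.05 or less. Huntingtin (Htt) stood at 3.91 FPKM in STHdhQ7 and 2.83 in STHdhQ111 and was not called. Of the 7 pan-neuronal markers, 5 were under 0.1 FPKM in both lines, Tubb3 stood at 2.42 and 3.62 FPKM, uncalled, and Stmn2 fell from 33.5 to 0.0563 FPKM (q = 1.79651e-09 in the authors' deposited table), so that the list summed to 35.97 and 3.79 FPKM. The 8 striatal medium spiny neuron markers summed to 3.55 and 6.81 FPKM, mostly Penk (2.85 and 6.49 FPKM, uncalled), with Drd1a listed at 0 in both. The 6 neural progenitor markers summed to 123.2 FPKM in STHdhQ7 and 1.69 in STHdhQ111, with 3 of 3 tested called lower and Hes5 listed at 0 in both. The 8 mesenchymal or fibroblast markers summed to 716 and 2361 FPKM, with 3 of 7 tested called higher, none called lower and none listed at 0. The 6 endothelial markers summed to 0.621 and 1.73 FPKM, with Cldn5 listed at 0 in both lines. Tek (0.386 and 1.46 FPKM), the only one tested, was called higher. The 6 microglia and leukocyte markers summed to 26.8 and 73.9 FPKM, with both tested genes called higher, Cd68 (26.5 and 72.4 FPKM) and Laptm5 (0.175 and 1.08 FPKM), while Ptprc stayed under 0.1 FPKM in both lines and Aif1 was listed at 0 in STHdhQ111. The 6 astrocyte and oligodendrocyte markers summed to 10.6 and 9.57 FPKM. Nearly all of that was Aldh1l1 (10.4 and 9.29 FPKM), the only one tested, which was uncalled. Aqp4, Olig1 and Olig2 were listed at 0 in both lines. The part of these marker differences in the results below was not tested, and in bulk RNA fewer cells of a type and less RNA per cell cannot be told apart.

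Of the 51 guidance genes with a test, 15 were called, which is 29.4%, against 13.5% of all 12740 tested genes. In STHdhQ111, 7 were called higher (6.35% of all tested genes were) and 8 lower (7.17% of all). The 7 called higher were Robo1, Robo2, Slit1, Unc5c, Sema3e, Sema6b and Ephb2. The 8 called lower were Nrp2, Plxna2, Ntn4, Unc5b, Sema5b, Sema7a, Epha3 and Epha4. The 7 that rose lay between 0.0298 and 0.568 FPKM in STHdhQ7 and reached 0.900 to 8.77 FPKM in STHdhQ111. The 8 that fell started between 1.06 and 72.4 FPKM. Called members had a median mean level of 1.73 FPKM and uncalled tested members of 11.2 FPKM. Receptors held 9 calls among 21 tested and ligands 6 among 30, a difference that was not tested. After 0.5 FPKM was added to both values, the log2 ratio of STHdhQ111 to STHdhQ7 had a median of -0.12 over the 51 tested members and -0.05 over all tested genes. A member had to reach a certain level in at least 1 line to be tested (the lowest mean was 0.503 FPKM), so these counts do not speak for all 70.

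**Figure D1:**
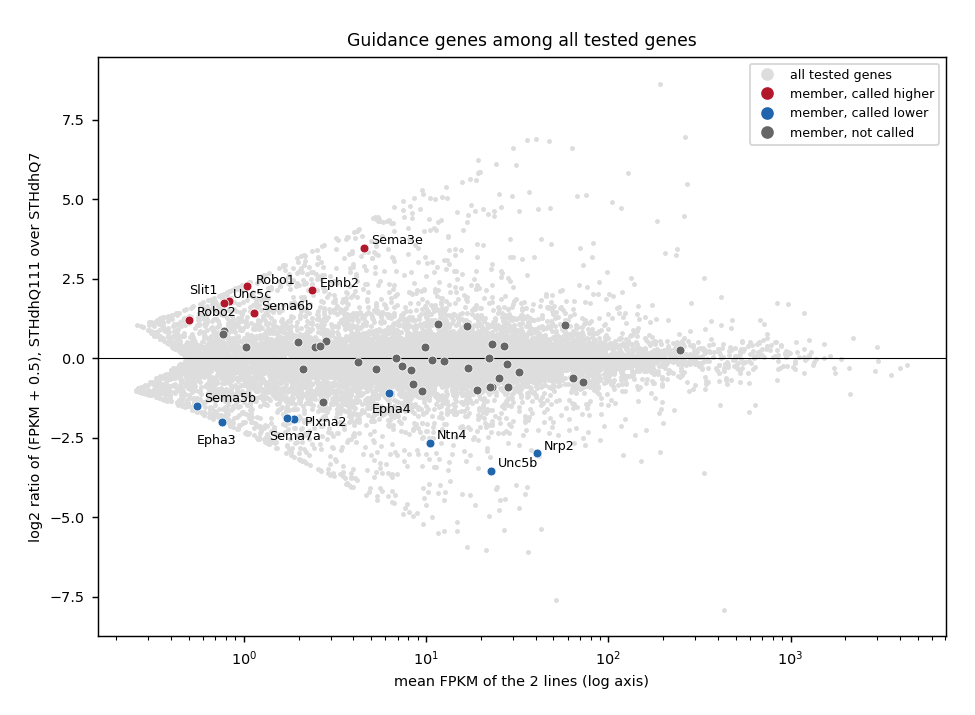
Each point is a gene, with the mean FPKM of both lines on a log axis and the log2 ratio of (FPKM + 0.5), STHdhQ111 over STHdhQ7, on the vertical axis. The 7 members called higher lie at means of 0.503 to 4.55 FPKM. Of those called lower, Sema5b, Epha3, Sema7a and Plxna2 lie in the same range, at 0.554 to 1.88 FPKM. Epha4 (6.31), Ntn4 (10.5), Unc5b (22.6) and Nrp2 (40.5) have higher means.

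The series title concerns DNA methylation, which falls on the cytosine of CG pairs (CpG), so the sequence just before the start sites of the members that moved most is shown, with every CG in capitals. The sequences are RefSeq promoters on GRCm38.p6, matched by symbol, cut to the 250 bases before the start and printed 5′ to 3′ on the gene's strand. The first 3 genes rose in STHdhQ111 and the last 3 fell.
Robo1 (chr16:72662899-72663148, plus strand, 11 CpG): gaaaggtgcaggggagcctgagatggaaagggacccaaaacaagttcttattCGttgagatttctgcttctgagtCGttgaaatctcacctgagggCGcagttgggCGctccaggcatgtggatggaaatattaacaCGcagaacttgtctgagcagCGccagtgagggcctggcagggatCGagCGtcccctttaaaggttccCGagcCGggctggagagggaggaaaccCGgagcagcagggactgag
Unc5c (chr3:141465314-141465563, plus strand, 23 CpG): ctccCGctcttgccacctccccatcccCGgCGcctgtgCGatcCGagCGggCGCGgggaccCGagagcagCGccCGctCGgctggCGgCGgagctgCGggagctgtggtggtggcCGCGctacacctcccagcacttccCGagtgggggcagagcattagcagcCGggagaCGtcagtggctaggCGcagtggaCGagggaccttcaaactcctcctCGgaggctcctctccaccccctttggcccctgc
Sema3e (chr5:14025026-14025275, plus strand, 7 CpG): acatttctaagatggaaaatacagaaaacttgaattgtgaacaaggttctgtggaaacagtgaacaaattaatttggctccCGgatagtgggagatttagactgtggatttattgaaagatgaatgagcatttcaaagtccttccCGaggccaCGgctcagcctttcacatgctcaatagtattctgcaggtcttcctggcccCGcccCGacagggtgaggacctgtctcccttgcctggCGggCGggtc
Nrp2 (chr1:62703067-62703316, plus strand, 32 CpG): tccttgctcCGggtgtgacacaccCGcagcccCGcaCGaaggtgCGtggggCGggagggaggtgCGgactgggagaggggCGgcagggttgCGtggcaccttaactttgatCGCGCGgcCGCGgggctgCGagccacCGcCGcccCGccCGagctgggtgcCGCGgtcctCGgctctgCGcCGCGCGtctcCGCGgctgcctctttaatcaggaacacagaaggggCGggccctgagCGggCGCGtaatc
Unc5b (chr10:60831582-60831831, minus strand, 27 CpG): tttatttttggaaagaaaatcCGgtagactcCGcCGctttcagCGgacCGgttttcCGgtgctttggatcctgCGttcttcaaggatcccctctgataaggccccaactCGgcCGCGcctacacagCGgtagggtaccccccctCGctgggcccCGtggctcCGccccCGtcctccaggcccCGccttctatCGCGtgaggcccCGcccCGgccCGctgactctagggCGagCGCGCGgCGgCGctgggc
Sema5b (chr16:35541112-35541361, plus strand, 19 CpG): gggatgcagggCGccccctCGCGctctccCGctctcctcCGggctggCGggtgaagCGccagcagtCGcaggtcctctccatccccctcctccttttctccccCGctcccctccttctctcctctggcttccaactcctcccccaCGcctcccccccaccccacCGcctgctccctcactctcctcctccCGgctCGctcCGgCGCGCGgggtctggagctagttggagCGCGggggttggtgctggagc

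A RefSeq promoter was found for 60 of the 70 members, 76 windows in all because some genes have several starts. Counting the letters CG (which read the same on both strands), 53 of the 76 windows (69.7%) held 10 or more, against 37.8% of all 32851 promoter windows of the same length. Those windows cover 27025 genes, whether tested here or not, so the comparison is not matched for expression. The 8 windows of the 8 members called lower held 14 to 32 CpG each. The 9 windows of 6 members called higher held 4 to 23, and 5 of them reached 10. Of these 9, Robo2 supplied 3 (14, 4 and 8 CpG) and Sema6b 2 (5 and 20 CpG). The 39 windows of 31 tested but uncalled members held 0 to 45, and 30 of them (76.9%) reached 10. Windows of untested members, 20 from 15 genes, held 2 to 46. The members without an entry were Slit1, Plxna1, Ntn1, Sema3b, Sema3f, Efnb3, Plxna4, Unc5d, Dcc and Sema6a. Methylation itself was not analysed here, and CpG number is a description of these windows.

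Among the class 3 semaphorins, the secreted members of the family, Sema3e rose and none of the other 5 tested genes was called. Sema3e, which signals through Plxnd1 without a neuropilin (mm9 chromosome 5, 14025276 to 14256689), stood at 0.332 FPKM in STHdhQ7 and 8.77 in STHdhQ111, 26.4-fold higher. The authors' deposited table gives a log2 fold change of 4.73 (implied SE 0.51) and prints its q as 0, below the table's precision. Sema3a, the classical repulsive cue, was listed at 4.14 and 1.29 FPKM, a log2 fold change of -1.69 ± 0.63 (implied SE, q = 0.0562) in the authors' deposited table. Sema3b was listed at 7.33 and 15.9 FPKM (q = 0.0636 in the authors' deposited table). These opposite shifts fell just short of the threshold. The most abundant uncalled members, Sema3c (29.6 and 26.03 FPKM) and Sema3f (19.4 and 26.5 FPKM), are both known as attractive or repulsive cues of migrating cells. The 95% interval that the deposited statistic implies for the log2 fold change was -0.95 to 0.58 for Sema3c and -0.29 to 1.19 for Sema3f. Sema3g stood at 0.448 and 1.09 FPKM, uncalled, and Sema3d had no test, at 0.0506 and 0.0959 FPKM. The class as a whole summed to 61.2 FPKM in STHdhQ7 and 79.7 FPKM in STHdhQ111, and Sema3e supplied 0.542% of the first sum and 11.01% of the second.

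The membrane-bound semaphorins of classes 4 to 7 had 2 genes called lower and 1 higher among 10 tested. Sema7a, which is anchored by a lipid and binds Plxnc1 and integrins (chromosome 9, 57787942 to 57810672), fell from 3.01 to 0.446 FPKM. The authors' deposited table gives it a log2 fold change of -2.76 and a q of 0.000891, and the implied SE was 0.68. Sema5b, which carries thrombospondin repeats (chromosome 16, 35541448 to 35664344), fell from 1.06 to 0.0499 FPKM (log2 fold change -4.41 and q = 0.000207 in the authors' deposited table, implied SE 0.998). The lower value is close to 0, and the log2 ratio was -0.97 when 1 FPKM was added to both values. Its relative Sema5a was listed at 12.9 and 6.04 FPKM and missed the threshold by the least of all members (q = 0.0508 in the authors' deposited table). Sema6b, a ligand of class A plexins (chromosome 17, 56262508 to 56279766), rose from 0.392 to 1.88 FPKM (log2 fold change 2.26 and q = 0.0115 in the authors' deposited table, implied SE 0.69). The remaining tested genes ranged from Sema4f at 0.838 and 1.21 FPKM to Sema4b at 9.47 and 7.15 FPKM. Sema4c, Sema4d, Sema4g and Sema6c lay between these levels, and none was called. Sema4a, Sema6a and Sema6d had no test and lay at or under 0.345 FPKM in both lines.

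Of the neuropilins, Nrp2 fell and Nrp1 was not called. Nrp2, the coreceptor of Sema3f and of a vascular growth factor (chromosome 1, 62749891 to 62865266), fell 8.35-fold, from 72.4 to 8.67 FPKM. The authors' deposited table gives it a log2 fold change of -3.06 and a q of 1.79651e-09, and the implied SE was 0.46. The Nrp2 locus overlaps the transcript 4930487H11Rik, and the library method is not described as keeping strand, so reads where they overlap may not be separable. Nrp1, the coreceptor of Sema3a, stood at 23.3 and 30.6 FPKM, uncalled, with an implied 95% interval of -0.36 to 1.15 for its log2 fold change. Nrp2 thus supplied 75.7% of the neuropilin FPKM in STHdhQ7 and 22.1% in STHdhQ111. The interval of Nrp2, -3.97 to -2.16, does not overlap that of Nrp1, although the difference between the genes was not itself tested.

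Of the plexins, the receptors that turn semaphorin binding into collapse of the cytoskeleton, 1 of 6 tested was called. Plxna2 (chromosome 1, 196446023 to 196643062) fell from 3.26 to 0.497 FPKM (log2 fold change -2.72 and q = 2.08365e-06 in the authors' deposited table, implied SE 0.50). The family was dominated in both lines by Plxnb2, a receptor of class 4 semaphorins, at 226 and 268 FPKM, or 72.7% and 72.0% of all plexin FPKM. Plxnb2 was not called. Plxna1 and Plxnd1 lay just outside the threshold in opposite directions. Plxna1 was listed at 37.8 and 78.0 FPKM (q = 0.0676 in the authors' deposited table). Plxnd1, the receptor of Sema3e, was listed at 25.6 and 12.6 FPKM (q = 0.0579 in the authors' deposited table). So the ligand Sema3e was called higher while its receptor was present in both lines and uncalled. Plxna3 stood at 6.80 and 6.84 FPKM, with an implied interval of -0.75 to 0.77, and Plxnb1 was listed at 10.9 and 5.98 FPKM. Plxnc1, the receptor of Sema7a, was listed at 0.0550 and 0.50004 FPKM. It had no test status, although the authors' deposited table carries an unadjusted p of 2.08924e-05 for it.

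**Figure D2:**
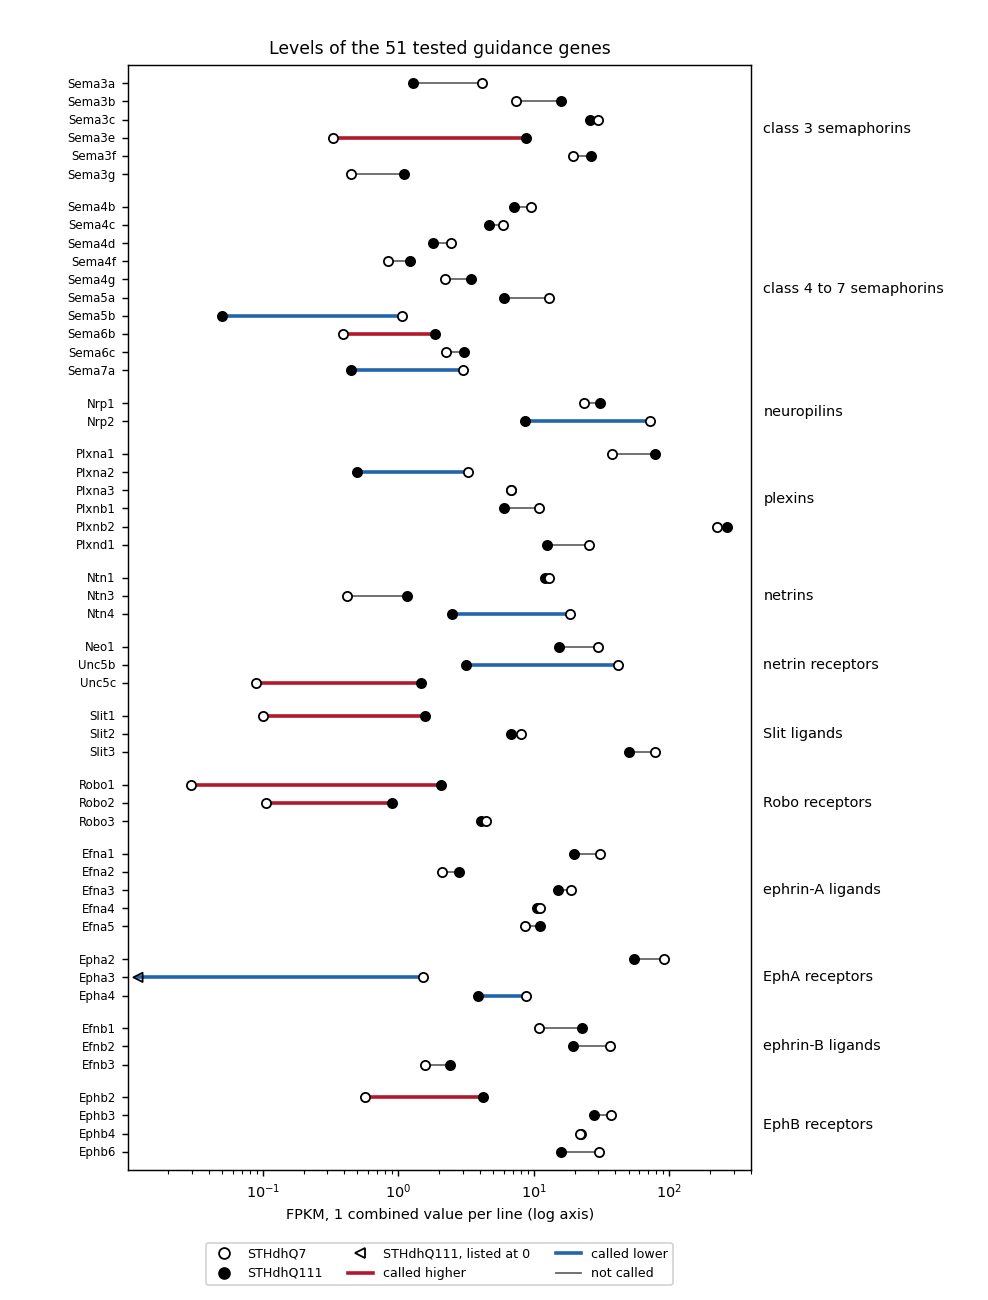
Each row is 1 of the 51 tested members, grouped by role, with its FPKM in STHdhQ7 (open circle) and STHdhQ111 (filled circle) on a log axis. Red and blue bars join the values of called members, and the triangle marks Epha3, listed at 0 in STHdhQ111 and drawn at the left edge.

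Netrins and their receptors both summed to lower levels in STHdhQ111, with Ntn4 the only netrin called. Ntn4, a laminin-related netrin of basement membranes (chromosome 10, 93103794 to 93208717), fell from 18.6 to 2.50 FPKM (log2 fold change -2.89 and q = 6.22977e-05 in the authors' deposited table, implied SE 0.62). Its locus overlaps the provisional genes Gm15915 and Gm8580, and as for Nrp2 the reads of the overlapping genes may not be separable. Ntn1, the classical attractant, stood at 13.02 and 12.1 FPKM, uncalled (implied interval -0.85 to 0.64). Ntn4 was the leading netrin in STHdhQ7 with 57.7% of the netrin FPKM, and Ntn1 led in STHdhQ111 with 76.8%. Ntn3, whose locus overlaps Tbc1d24, was listed at 0.416 and 1.15 FPKM with a wide implied interval of -1.09 to 4.02. Ntn5 had no test, at 0.147 and 0.0173 FPKM.

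Among the netrin receptors, Unc5b and Unc5c were called in opposite directions. Unc5b, a repulsive receptor that can trigger cell death without its ligand (chromosome 10, 60225343 to 60294329), fell 13.4-fold, from 42.1 to 3.15 FPKM. The authors' deposited table gives a log2 fold change of -3.74 (implied SE 0.41) and prints its q as 0. Unc5c, a repulsive receptor of the same family (chromosome 3, 141128528 to 141497886), rose from 0.0891 to 1.46 FPKM (log2 fold change 4.04 and q = 4.64417e-09 in the authors' deposited table, implied SE 0.62). Its STHdhQ7 level is close to 0, and with 1 FPKM added to both values the log2 ratio was 1.18. Even after these changes Unc5b remained the more abundant of the pair in STHdhQ111. Neo1, which binds netrins and repulsive guidance molecules, was listed at 29.6 and 15.4 FPKM and missed the threshold (q = 0.0859 in the authors' deposited table). Dcc, the main attractive netrin receptor, was practically undetected, at 0.00137 FPKM in STHdhQ7 and under that in STHdhQ111, and had no test. Unc5a and Unc5d had none either and did not exceed 0.0376 FPKM. The receptors together summed to 71.8 FPKM in STHdhQ7 and 20.1 FPKM in STHdhQ111, a ratio of 0.280, and without Unc5b the ratio was 0.570.

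Robo1, Robo2 and Slit1, all low in STHdhQ7, rose in STHdhQ111. Robo1, a main Slit receptor (chromosome 16, 72663394 to 73046345), stood at 0.0298 FPKM in STHdhQ7 and 2.05 in STHdhQ111. Its log2 fold change of 6.11 in the authors' deposited table, with an implied SE of 0.76 (q = 1.48887e-13), was the largest of any member with a fold change and a test. The STHdhQ7 level is close to 0, and the log2 ratio was 1.57 after adding 1 FPKM to both values. Robo2, the other main Slit receptor (chromosome 16, 73892551 to 74411157), rose from 0.106 to 0.900 FPKM (log2 fold change 3.08 and q = 0.000338 in the authors' deposited table, implied SE 0.72). The Robo2 locus also holds the microRNA gene Mir691. Slit1, a ligand of both (chromosome 19, 41674747 to 41818346), rose from 0.0999 to 1.57 FPKM (log2 fold change 3.97 and q = 2.54898e-08 in the authors' deposited table, implied SE 0.64). With 1 FPKM added, the log2 ratio was 0.78 for Robo2 and 1.22 for Slit1. At a mean of 1 FPKM or more the calls of Robo2 (mean 0.503 FPKM) and Slit1 (mean 0.834 FPKM) were lost. Robo2 was also lost with a Holm adjustment of the deposited p-values (0.212), while Robo1 and Slit1 were kept. Robo1, Robo2 and Slit1 all remained low in STHdhQ111 beside Slit3, which was listed at 78.2 and 50.2 FPKM. Neither Slit3 (implied interval -1.40 to 0.13) nor Slit2, at 8.06 and 6.79 FPKM, was called. Robo3, a divergent receptor of commissural axons, stood at 4.46 and 4.06 FPKM, uncalled. It supplied 96.3% of the Robo FPKM in STHdhQ7 and 57.8% in STHdhQ111, where Robo1 supplied 29.2% and Robo2 12.8%. Robo4, known from endothelium, had no test, at 0.0341 and 0.0123 FPKM.

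**Figure D3:**
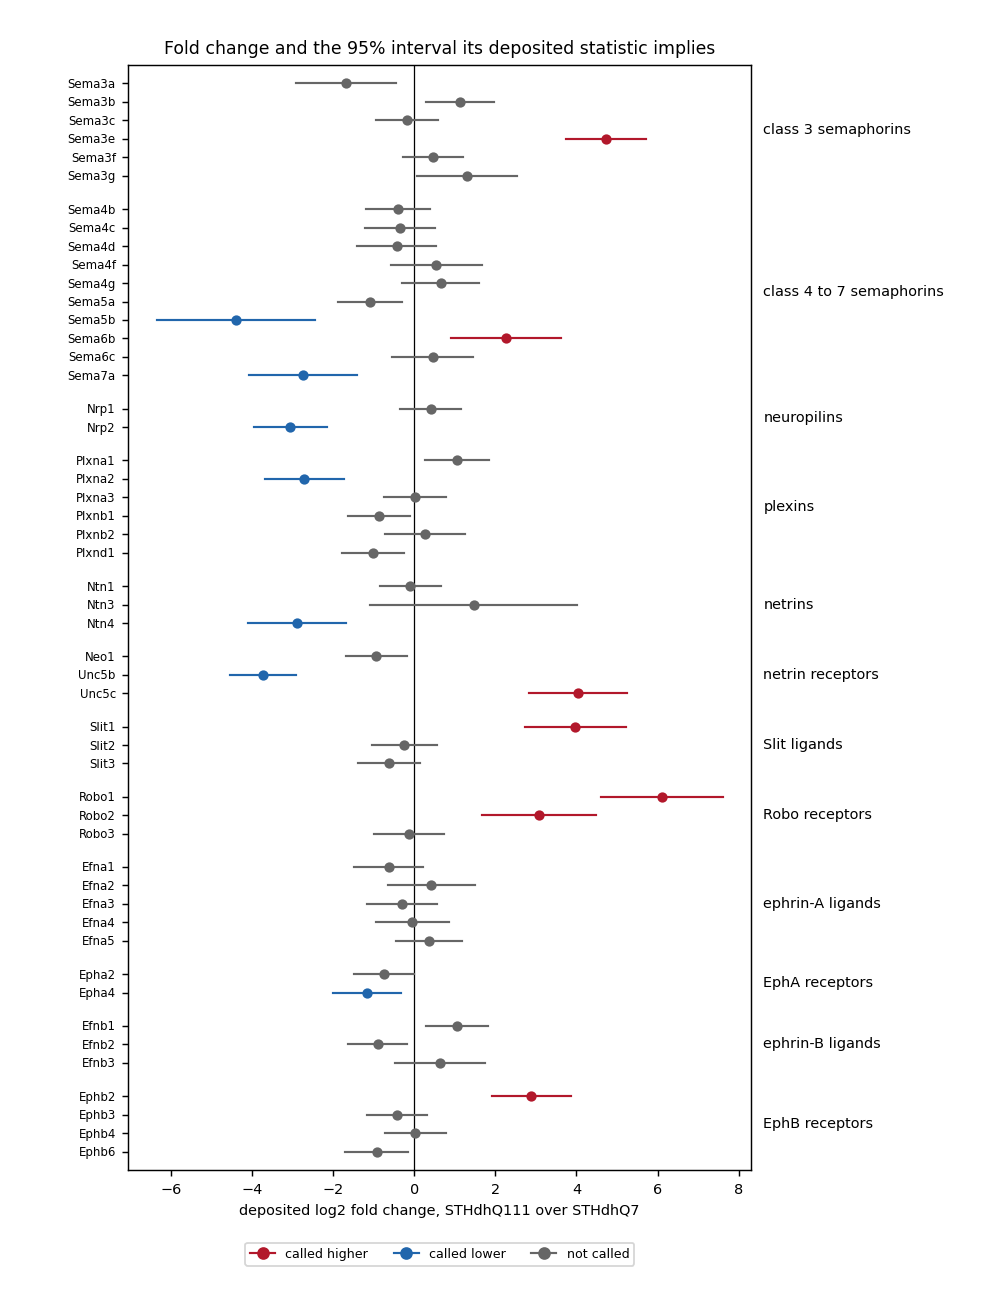
Points are the deposited log2 fold changes of the 50 tested members that have one, STHdhQ111 over STHdhQ7, and lines are the 95% intervals implied by the deposited statistic. Robo1 (6.11), Sema3e (4.73), Unc5c (4.04) and Slit1 (3.97) lie farthest to the right, and Sema5b (-4.41) and Unc5b (-3.74) farthest to the left.

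No ephrin was called. All 8 were tested by Cuffdiff, and 2 of them, Efnb1 and Efnb2, had an unadjusted p under 0.05. Efnb1 was listed at 10.9 and 22.6 FPKM (q = 0.0565) and Efnb2, which marks arteries and repels neural crest cells, at 36.7 and 19.6 FPKM (q = 0.0962), both q from the authors' deposited table. The ephrin-B sum moved little, from 49.2 to 44.6 FPKM, while Efnb2 supplied 74.7% of it in STHdhQ7 and 43.97% in STHdhQ111. Efnb3 was listed at 1.56 and 2.42 FPKM. The lipid-anchored ephrin-A ligands were led by Efna1 in both lines, at 30.7 and 19.8 FPKM (implied interval -1.49 to 0.22). Efna3 (18.8 and 15.2 FPKM), Efna4 (11.02 and 10.6 FPKM), Efna5 (8.64 and 11.1 FPKM) and Efna2 (2.10 and 2.80 FPKM) followed.

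The Eph receptors, tyrosine kinases that bind ephrins, had 3 calls among 7 tested. Epha3, a receptor of Efna5 (chromosome 16, 63545044 to 63863983), was listed at 1.52 FPKM in STHdhQ7 and at 0 in STHdhQ111 (q = 4.74047e-05 in the authors' deposited table), so no fold is given. Epha4, which binds both ephrin classes (chromosome 1, 77363760 to 77511663), fell from 8.75 FPKM in STHdhQ7 to 3.87 FPKM in STHdhQ111. It was the call nearest to the threshold (log2 fold change -1.18 and q = 0.0450 in the authors' deposited table, implied SE 0.43). Ephb2, which acts in axon crossing and at synapses (chromosome 4, 136209525 to 136391850), rose 7.38-fold, from 0.568 to 4.19 FPKM (log2 fold change 2.88 and q = 3.26752e-07 in the authors' deposited table, implied SE 0.50). The abundant receptors were uncalled. Epha2, an epithelial receptor, was listed at 91.8 and 54.5 FPKM (implied interval -1.50 to -0.000107, q = 0.236 in the authors' deposited table). Ephb3 was listed at 37.5 and 27.6 FPKM, the kinase-dead Ephb6 at 30.3 and 15.9 FPKM, and Ephb4, the venous partner of Efnb2, at 22.1 and 22.5 FPKM. Epha2 made up 89.7% of the EphA FPKM in STHdhQ7 and 92.9% in STHdhQ111. Of the 7 untested Eph receptors, Epha10 and Epha8 were listed at 0 in both lines. Epha1 reached 0.233 FPKM, and Epha5, Epha6, Epha7 and Ephb1 did not exceed 0.0326 FPKM.

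Summed by role, the level of 9 of the 12 groups was lower in STHdhQ111. The ratios of summed FPKM, STHdhQ111 over STHdhQ7, were 0.280 for netrin receptors, 0.411 for neuropilins, 0.491 for netrins, 0.573 for EphA receptors, 0.678 for Slits and 0.732 for class 4 to 7 semaphorins. EphB receptors (0.777), ephrin-A (0.835) and ephrin-B ligands (0.907) were nearer to 1. The ratio was above 1 for plexins (1.202), class 3 semaphorins (1.30) and Robo receptors (1.52). These sums have no test, and for neuropilins, Slits and ephrin-B ligands the ratio lay above 1 once the most abundant gene was left out.

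**Figure D4:**
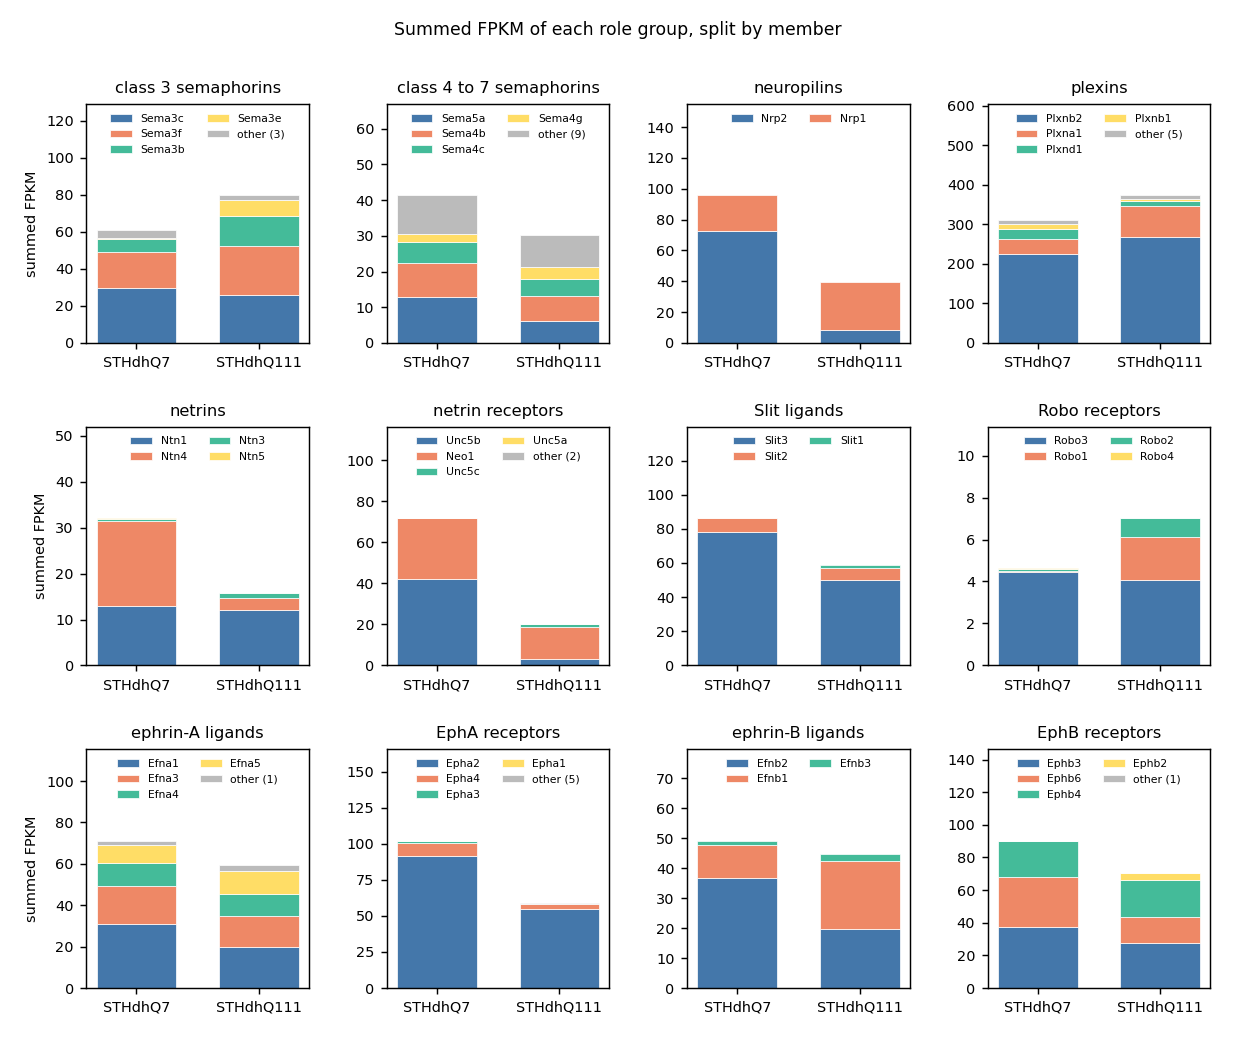
Bars are the summed FPKM of each role group in each line, split by member, with the vertical axis starting at 0 and scaled per panel. Nrp2, Unc5b and Ntn4 lead their groups in STHdhQ7, while Nrp1, Neo1 and Ntn1 lead in STHdhQ111.

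Some members lie close together in the genome. The closest pair was Robo4 and Robo3 on chromosome 9, 2.0 kb apart, of which Robo4 was untested and Robo3 uncalled. Sema3b and Sema3f, both uncalled, lie 72.3 kb apart on the same chromosome. Robo1 and Robo2 are neighbours on chromosome 16, 846.2 kb apart with no other table gene between them, and both were called higher. On chromosome 5, Sema3e, called higher, lies 421.8 kb from Sema3a, which was uncalled, with 1 other table gene between them. The ephrins Efna1, Efna3 and Efna4 lie within a stretch of chromosome 3 with gaps of 34.0 and 10.5 kb, and all were uncalled. Ephb2, called higher, lies 93.5 kb from Epha8, which was listed at 0 in both lines, with 3 table genes between them.

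Just outside the threshold stood 8 members with a q above 0.05 and up to 0.1. Sema3b, Plxna1 and Efnb1 had the higher value in STHdhQ111, and Sema3a, Sema5a, Plxnd1, Neo1 and Efnb2 the lower. Of the tested but uncalled members, 8 differed by 2-fold or more, up to 3.22-fold for Sema3a. The median implied SE of the log2 fold change was 0.44 over tested members, and the smallest called change among them was 2.26-fold (Epha4).

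Of the wider guidance pathway, 103 further genes were in the table, and of the 90 tested 7 were called higher and 13 lower (22.2% in all, against 13.5% of all tested genes). Effectors inside the cell held 10 calls among 69 tested, 3 higher and 7 lower, a share of 14.5% that is near the 13.5% of all tested genes. Other ligands, receptors and coreceptors held 10 among 21, 4 higher and 6 lower. Srgap1, a GTPase-activating protein that binds Robo receptors, rose from 0.300 to 9.75 FPKM (log2 fold change 5.02 and q = 6.57872e-13 in the authors' deposited table, implied SE 0.64). Its relatives Srgap2 (15.9 and 11.97 FPKM) and Srgap3 (12.2 and 16.1 FPKM) were not called. Dapk1, a kinase that binds Unc5b in cell death signalling, rose from 1.54 to 18.2 FPKM, and Fes, a kinase acting with plexin A receptors, from 0.131 to 3.999 FPKM. Wnt5a rose from 1.08 to 5.24 FPKM, while its receptor Ryk stood at 40.9 and 64.1 FPKM, uncalled. Lrig3 rose from 7.24 to 26.2 FPKM and the hedgehog receptor Ptch1 from 6.13 to 14.2 FPKM. Of the 7 effectors called lower, Dpysl3, a collapsin response mediator protein, fell from 74.7 to 8.50 FPKM (log2 fold change -3.14 and q = 1.18818e-09 in the authors' deposited table, implied SE 0.47). Mical1, an oxidase of actin downstream of plexins, fell from 16.6 to 3.56 FPKM. Ngef, the exchange factor ephexin that acts below Epha4, fell from 11.2 to 2.00 FPKM, and Vav3, another exchange factor of Eph signalling, from 3.42 to 0.355 FPKM. The other effectors called lower were Sipa1l1, Rasa1 and Fyn. Outside the cell, the protease Mmp3 fell from 19.8 to 0.336 FPKM, the coreceptor Gfra1 from 12.2 to 2.92 FPKM and Rgma, a ligand of Neo1, from 21.99 to 9.57 FPKM. The small GTPases that most guidance receptors converge on were uncalled, with Rac1 at 117 and 116 FPKM, Cdc42 at 94.3 and 96.9 FPKM and Rhoa at 113 and 88.1 FPKM.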

How the data were processed

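Poly(A) RNA was reverse transcribed with random primers and sequenced, per the labels' protocols. TopHat 1.4.0, Bowtie 0.12.7, Cufflinks 2.0.2, Cuffdiff and the mm9 build are named per the submitters' processing notes. The sources used here do not give the annotation, options or scaling. The deposited table holds the authors' FPKM, 1 value per line combined over replicates, with log2 fold change, statistic, p-value and q-value per the file headers. Nothing says that the replicates were separate cultures, so these p-values may measure technical spread only. A new test was not possible.

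Members were all genes matching the symbol rule. The members and gene lists were chosen with earlier results of these data known. Named were all called members, the most abundant member of each group in each line and the most abundant uncalled one, members under 0.1 FPKM in 1 line and at 1 or more in the other, and up to 6 called pathway genes per direction. The remaining members are given briefly so that all are accounted for. Rgma, Ryk, Sipa1l1, Rasa1, Fyn, Srgap2, Srgap3, Rac1, Cdc42 and Rhoa were chosen after their values were seen. The deposited q equalled a Benjamini-Hochberg adjustment over tested genes. Intervals are the log2 fold change ± 1.96 implied SE. Locus starts were raised by 1. Alternatives covered the threshold, adjustment, level, fold, pseudocount and centring. A calling step with the same adjustment was run on values simulated from the implied SE. The deposited p-values and calls were not part of that run, so it does not test them. Python 3.11.15, numpy 2.4.6, pandas 2.3.3 and matplotlib 3.10.9 were used.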

Additional observations from a re-analysis of the deposited data

How the results depend on the processing

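Of the members, 7 were called higher and 8 lower. At a mean of 1 FPKM or more 4 were higher (Robo2, Slit1 and Unc5c were lost) and 6 lower (Sema5b and Epha3 were lost). At a q of 0.1 or less 13 were lower. With a Holm adjustment 5 were higher (Robo2 and Sema6b were lost) and 5 lower (Sema5b, Sema7a and Epha4 were lost). The other alternatives kept these counts within 1.5 times. Of the pathway genes, 7 were called higher (4 with Holm) and 13 lower (6 at a q of 0.01 or less, 7 with a fold of at least 4 and 4 with Holm). The median log2 ratio of tested members, -0.12, was -0.13 and -0.11 with pseudocounts of 0.1 and 1 FPKM, -0.072 after recentring on the median ratio (-0.05) of tested genes at 1 FPKM or more, -0.025 with untested members and -0.21 at a mean of 1 FPKM or more. That of pathway genes, -0.14, was -0.14 and -0.13 with those pseudocounts, -0.087 recentred, -0.11 with untested genes and -0.11 at 1 FPKM or more. Without the most abundant gene of a group, the ratio of summed FPKM moved across 1 to 1.023 for Slits, 2.01 for ephrin-B ligands and 1.32 for neuropilins. It became 0.394 for EphA, 0.804 for EphB, 17.4 for Robo receptors, 1.69 for class 3 and 0.851 for class 4 to 7 semaphorins, 0.979 for ephrin-A ligands, 0.570 for netrin receptors, 0.192 for netrins and 1.24 for plexins. The gene left out was the one with the highest mean over both lines. For netrins that was the uncalled Ntn1 (mean 12.6 FPKM), so the called Ntn4 (mean 10.5 FPKM) stayed in. A ratio without Ntn4 was not taken. Adding the same pseudocount to both values cannot change the direction of a fold change, so the pseudocounts do not test it. Recentring is a shift of only 0.05 and changed no direction among the 50 tested members with a fold change. Efna4 came nearest, moving from -0.051 to -0.0014. At a q of 0.01 or less 2 calls were lost, Epha4 and Sema6b. No paired analysis was possible because the table holds 1 combined value per line. Leaving out a replicate was not possible for the same reason, and depth is unknown.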
